A study of Physcomitrium patens with 47 samples.

Results

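The comparison described here set plants of the moss Physcomitrium patens that lack COX11 directly against plants that lack NDUFA5, both frozen at the end of the night (zeitgeber time 0, ZT0, the moment before lights on). It was chosen by genotype and time from the sample labels and used 9 of the 47 libraries of the series, 5 of COX11 KO and 4 of NDUFA5 KO. Mitochondrial respiration passes electrons along a chain of membrane complexes. Complex I takes them from NADH, and complex IV, cytochrome c oxidase, hands them to oxygen at the end of the chain. COX11, best known from yeast, is an assembly factor that delivers copper to cytochrome c oxidase. NDUFA5 is an accessory subunit of the matrix arm of complex I. A plant cannot photosynthesise at night and draws on respiration of stored reserves. The question the comparison addresses is therefore how far losing COX11 and losing NDUFA5 leave the same or different transcript levels after a dark period. The complexes themselves and respiration were not measured here.

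The COX11 KO group held lines 150 (3 libraries) and 152 (2 libraries), and the NDUFA5 KO group held lines 46 (2 libraries) and 48 (2 libraries). In every line part of the gene had been disrupted by an antibiotic resistance cassette introduced by homologous recombination. Each genotype rests on 2 lines, whose independence could not be checked here. Further groups were used only where named: both knockouts at ZT2 and at ZT6 (5 libraries each), and WT at ZT2 (4 libraries) and ZT6 (8 libraries). WT at ZT0 (6 libraries) is given for scale and is the baseline of the lists of genes that change with time of day in WT. All 47 libraries set the spread that the test uses. One NDUFA5 KO library at ZT6 (46-3) is line 46 by its title and line 48 by another label, and the title was followed. All plants were protonema (the filaments) with young gametophores (the leafy shoots). They were grown on nitrate medium under equal light and dark periods, and boxes for ZT0 stood in foil from dusk on. RNA came from whole tissue, where fewer cells of a type and less RNA per cell cannot be told apart. Whether libraries of 1 line had cultures of their own is not in the labels, and the p-values cover only library-to-library spread, part or all of which may be technical.

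Transcripts were counted as sequence tags from their 3′ ends. Levels are CPM, counts scaled to a common library size after correction of the library totals. A gene is called when edgeR's quasi-likelihood test gives a Benjamini-Hochberg adjusted p below 0.05 over the 18460 genes tested. The gene IDs of the deposited table could not be paired with names or functions here, because none of them was found in the reference table. The genes are therefore described by ID, level and pattern, and neither the disrupted genes nor tissue markers could be checked. The 9 libraries held between 4060126 and 10349601 counts in genes. The deepest was NDUFA5 KO library 46-2, and the next held 5985411.

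The 2 knockouts differed widely at the end of the night. Of the 18460 genes tested, 11075 were called, which is 60% of them. COX11 KO was higher than NDUFA5 KO in 5825 genes (31.6%) and lower in 5250 (28.4%). Both directions held large differences. The call was joined by a difference of at least 2-fold in 5430 genes (29.4%), of which 3387 were higher and 2043 lower in COX11 KO. At least 8-fold were 200 genes higher and 178 lower, and at least 32-fold were 15 genes higher and 32 lower. The typical called gene moved less than that, with a median log2 fold change of 1.14 for the higher genes and -0.84 for the lower ones.

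**Figure D1:**
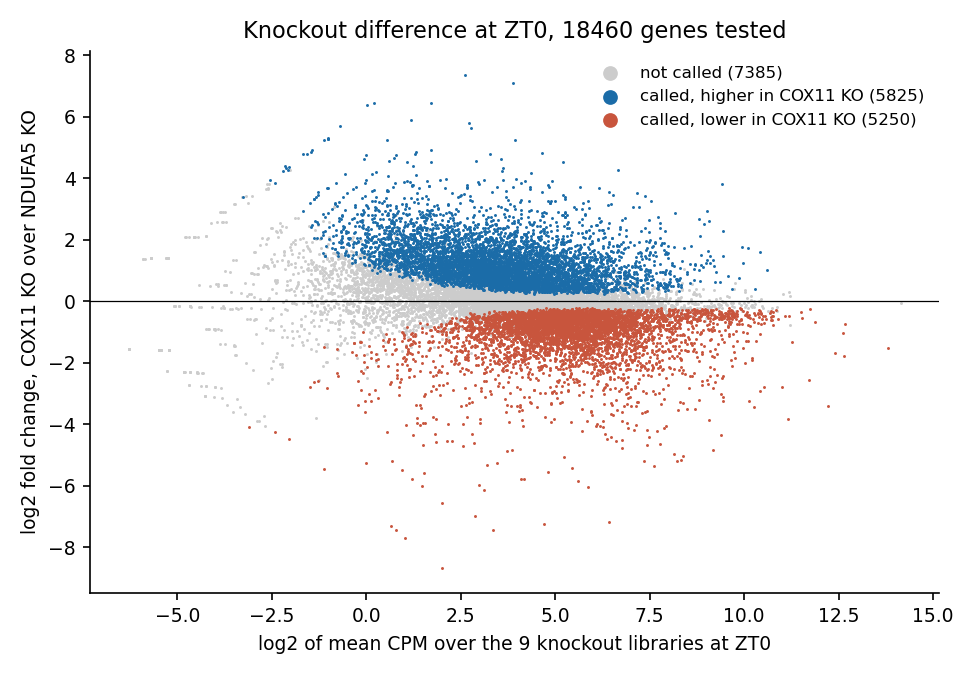
Log2 fold change of COX11 KO over NDUFA5 KO at ZT0 (vertical axis) against the log2 of the mean CPM over the 9 libraries (horizontal axis), 1 point for each gene. The 5825 genes called higher in COX11 KO are blue, the 5250 called lower are red and the 7385 not called are grey; 51 genes with no count in these 9 libraries are not drawn.

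The plot of fold change against level shows both directions at all but the lowest levels, with the called lower genes lying further to the right. The genes called higher had median levels of 15.0 CPM in COX11 KO, 6.80 CPM in NDUFA5 KO and 13.04 CPM in WT. The genes called lower had median levels of 27.8 CPM in COX11 KO, 54.3 CPM in NDUFA5 KO and 31.0 CPM in WT. In both lists the COX11 KO median lay nearer to WT than the NDUFA5 KO median did. As log2 fold change over WT, the higher genes had medians of 0.19 in COX11 KO and -0.88 in NDUFA5 KO, and the lower genes -0.14 and 0.73 in the same order. These fold changes over WT share the knockout libraries with the comparison that chose the genes, so they are a description and carry no test.

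The direction counts depended on the scaling of the libraries. With library totals alone, 8837 genes were called higher in COX11 KO and 2861 lower, and the higher share of the calls was 75.5% in place of 52.6%. The median log2 fold change over all genes tested was then 0.48, against 0.09 with the scaling used. The scaling factor itself differed between the groups. It was 1.10 ± 0.0506 in COX11 KO (SD, n = 5) and 0.835 ± 0.0106 in NDUFA5 KO (SD, n = 4), with no overlap (two-sided exact permutation test, p = 0.0159, the smallest these group sizes allow, adjusted p = 0.0265 over 5 library measures).

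Each line of one knockout could be set against each line of the other. A gene passed in all 4 pairs of lines with 1 sign in 5906 cases (32% of the genes tested), of which 2845 were higher and 3061 lower in COX11 KO. All 4 pairs also differed by at least 2-fold in 1782 of the higher and 1312 of the lower genes. All COX11 KO libraries lay on one side of all NDUFA5 KO libraries in 8736 genes (47.3%), which included 4287 of the genes called higher and 4225 of those called lower.

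Few genes were called between lines of the same knockout, where each side has 2 or 3 libraries. Between the COX11 KO lines 150 and 152, edgeR called 0 genes (0%); 502 had an unadjusted p below 0.05, and DESeq2 called 1. Between the NDUFA5 KO lines 46 and 48, it called 36 genes (0.195%); 2066 had an unadjusted p below 0.05, and DESeq2 called 109. Leaving out 1 library leaves its line with 1 library, which is then taken to vary like the other groups, and the count was 0 without 46-2 or 48-2, 7 without 48-1 and 172 without 46-1. The lines 46 and 48 also coincide with the lower and the higher sample codes at ZT0, so line and code cannot be told apart. In COX11 KO, library 152-2 was more like 150-3, which has the neighbouring code, than like 152-1 of its own line. Spread within line 152 thus limits the comparison of lines 150 and 152.

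Among the genes called between the lines 46 and 48, Pp3c9_24840 had 108.0 and 110.1 CPM in line 46, against 23.04 and 24.1 CPM in line 48. Its log2 fold change, line 46 over line 48, was 2.21 ± 0.50 (SE, edgeR, adjusted p = 0.0446). Pp3c9_25690 had 261 and 233 CPM in line 46, against 73.8 and 78.1 CPM in line 48 (log2 fold change 1.70 ± 0.38, edgeR adjusted p = 0.0426). In both genes the COX11 KO libraries overlapped the range of the NDUFA5 KO libraries. In the other direction, Pp3c1_31230 had 3.33 and 5.78 CPM in line 46, against 16.8 and 19.3 CPM in line 48 (log2 fold change -1.94 ± 0.43, edgeR adjusted p = 0.0426). Pp3c5_9860 had 12.5 and 11.5 CPM in line 46, against 35.8 and 46.5 CPM in line 48 (log2 fold change -1.78 ± 0.41, edgeR adjusted p = 0.0463). Both NDUFA5 KO lines nevertheless lay above every COX11 KO library for Pp3c5_9860, which had 1.37 to 3.32 CPM in COX11 KO. All 4 calls were lost without any 1 of the 4 NDUFA5 KO libraries (edgeR adjusted p = 0.0510 to 0.522), while the log2 fold changes kept their sign. They then ran from 2.15 to 2.203 for Pp3c9_24840, 1.58 to 1.76 for Pp3c9_25690, -1.67 to -2.45 for Pp3c1_31230 and -1.62 to -1.99 for Pp3c5_9860. With library 46-3 at ZT6 counted as line 48, Pp3c5_9860 had an adjusted p of 0.0737 (edgeR), and 35 genes were called between the lines.

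The largest differences between the knockouts among genes of at least 32 CPM on average were described in every library. Pp3c10_6760 had 102, 57.01, 60.9, 46.6 and 54.6 CPM in COX11 KO libraries 152-1, 150-1, 150-2, 150-3 and 152-2, against 1.25, 4.40, 3.44 and 0.965 CPM in NDUFA5 KO libraries 46-1, 46-2, 48-1 and 48-2. All 5 COX11 KO libraries lay more than 10-fold above all 4 NDUFA5 KO libraries, and library 152-1 stood above its group. On the log2 scale the fold change was 4.54 ± 0.82 (SE, edgeR, adjusted p = 8.41e-06). WT ran from 6.73 through a median of 24.2 to 39.5 CPM, between the knockouts without overlapping either.

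Pp3c16_23250 had 249, 116, 169, 168 and 171 CPM in COX11 KO, in the same order of libraries, against 4.99, 13.7, 10.9 and 5.55 CPM in NDUFA5 KO. The groups did not overlap, and the highest NDUFA5 KO library stayed well below the lowest COX11 KO library. This gave a log2 fold change of 4.27 ± 0.57 (SE, edgeR, adjusted p = 2.13e-08). WT ran from 28.6 through 80.3 to 145 CPM, above every NDUFA5 KO library and reaching into the COX11 KO range.

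In the other direction, Pp3c12_25330 had 0.474, 2.29, 1.22, 0.925 and 1.65 CPM in COX11 KO, against 157, 238, 201 and 175 CPM in NDUFA5 KO. The transcript was near the floor of detection in every COX11 KO library and abundant in every NDUFA5 KO library. The log2 fold change was -7.17 ± 0.35 (SE, edgeR, adjusted p = 6.64e-21), with -7.04 to -7.37 over the 4 pairs of lines. WT, at 0.196 to 1.26 CPM, was as low as COX11 KO.

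Pp3c2_27000 had 0.949, 2.29, 2.79, 1.85 and 1.81 CPM in COX11 KO, against 233, 127, 82.2 and 76.7 CPM in NDUFA5 KO. Again COX11 KO lay in the WT range, which was 0.431 to 3.16 CPM, and all NDUFA5 KO libraries lay far above both. On the log2 scale the fold change was -6.03 ± 0.45 (SE, edgeR, adjusted p = 3.83e-15). The level in line 46 was above that in line 48, and the log2 fold change ran from -5.10 to -6.93 over the pairs of lines.

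**Figure D2:**
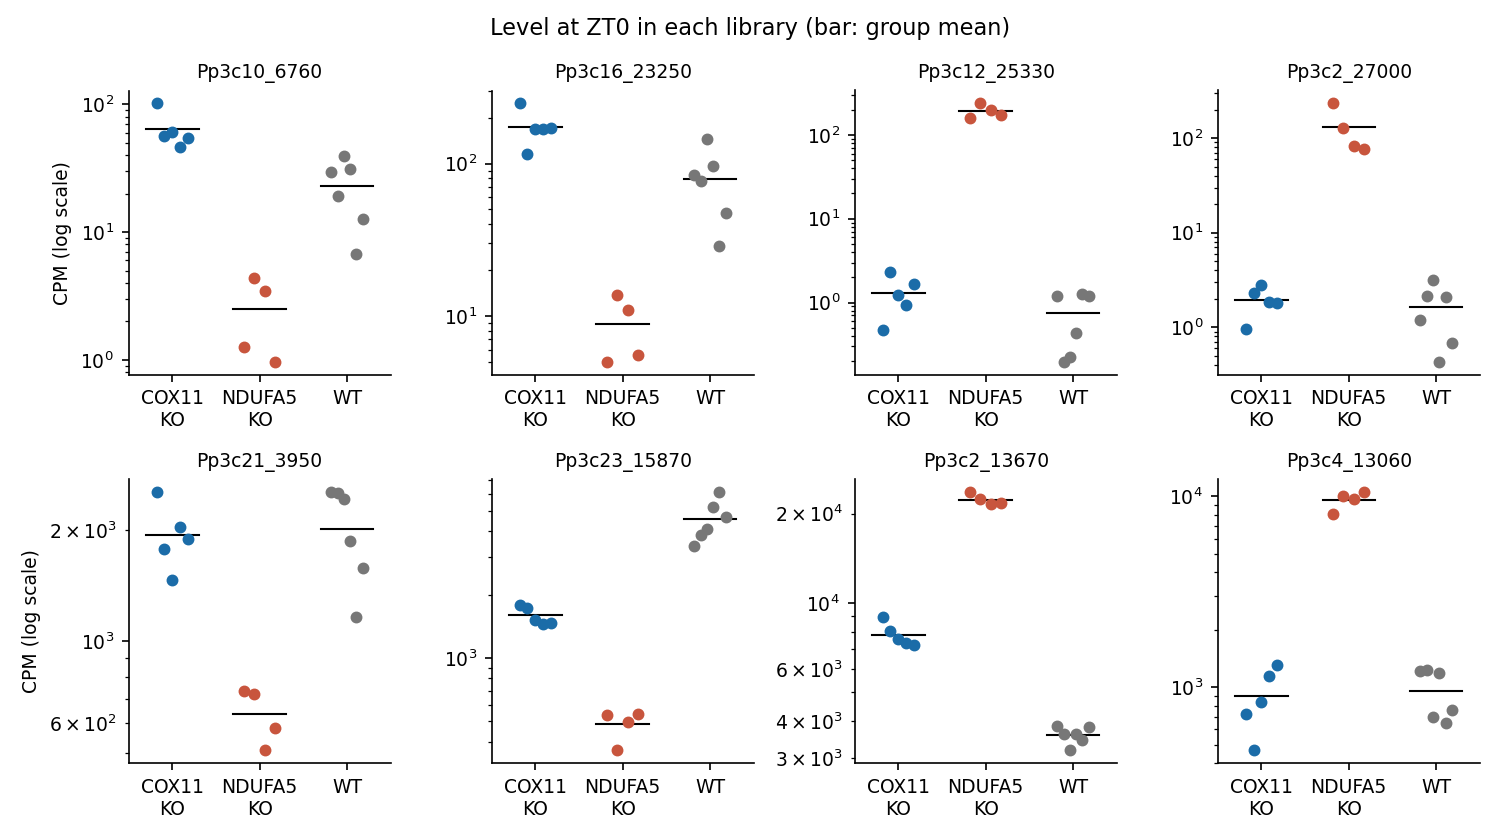
CPM on a log axis in each ZT0 library (points) with group means (bars) for 8 genes: the top row holds the largest fold changes among genes of at least 32 CPM, the bottom row the largest shifts in CPM. In each panel all 5 COX11 KO points lie on one side of all 4 NDUFA5 KO points, for instance 0.474 to 2.29 CPM against 157 to 238 CPM for Pp3c12_25330.

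The genes with the largest shift in CPM were abundant transcripts with more moderate fold changes. Pp3c2_13670 had 8932, 8063, 7554, 7337 and 7239 CPM in COX11 KO, against 23654, 22342, 21525 and 21660 CPM in NDUFA5 KO. Each group was tight, and WT, at 3189 to 3847 CPM, lay below both. A level above WT is not particular to this gene. Genes of its ID prefix, Pp3c2, had a mean library median of 0.95 log2 over WT in COX11 KO and 0.84 in NDUFA5 KO. Pp3c2_13670 alone took 0.848% of all gene counts in COX11 KO and 1.86% in NDUFA5 KO. Its log2 fold change was -1.51 ± 0.14 (SE, edgeR, adjusted p = 5.39e-12).

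Pp3c4_13060 had 725, 467, 833, 1144 and 1314 CPM in COX11 KO, against 8022, 9998, 9627 and 10528 CPM in NDUFA5 KO. The COX11 KO libraries spanned the WT range of 652 to 1227 CPM, and NDUFA5 KO stood apart from both. The log2 fold change was -3.41 ± 0.36 (SE, edgeR, adjusted p = 9.76e-11).

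Higher in COX11 KO by the same ranking were Pp3c21_3950 and Pp3c23_15870. Pp3c21_3950 had 2533, 1779, 1466, 2033 and 1892 CPM in COX11 KO, against 734, 718, 507 and 582 CPM in NDUFA5 KO (log2 fold change 1.61 ± 0.18, edgeR adjusted p = 3.03e-10). COX11 KO overlapped WT, at 1166 to 2535 CPM, and NDUFA5 KO lay below both. Pp3c23_15870 had 1791, 1728, 1516, 1457 and 1463 CPM in COX11 KO, against 539, 365, 495 and 541 CPM in NDUFA5 KO (log2 fold change 1.72 ± 0.20, edgeR adjusted p = 1.17e-09). Here both knockouts lay below every WT library, which ran from 3383 to 6142 CPM.

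In sum of counts the lower list weighed more than the higher one. The 5825 genes called higher took 22.8% to 24.7% of the counts of each COX11 KO library, against 8.30% to 9.10% of each NDUFA5 KO library. The 5250 genes called lower took 42.2% to 45.1% in COX11 KO, against 64.7% to 66.7% in NDUFA5 KO. These shares follow from how the lists were chosen and carry no test.

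The same difference was read 2 h and 6 h into the light, in libraries that the ZT0 comparison does not use. At ZT2, COX11 KO was called higher in 2503 genes (13.6%) and lower in 2812 (15.2%). At ZT6 it was called higher in 1829 (9.91%) and lower in 1567 (8.49%). The difference itself changed with time: the knockout difference at ZT0 minus that at ZT2 was called in 6557 genes (35.5%), and ZT0 minus ZT6 in 9760 (52.9%). The counts in the light moved more with the setting than that at ZT0. With counts summed for each line, which leaves 2 values a group, the calls numbered 9505 in place of 11075 at ZT0, 2214 in place of 5315 at ZT2 and 424 in place of 3396 at ZT6. The changes then numbered 3778 from ZT0 to ZT2 and 7542 from ZT0 to ZT6. Only the libraries whose sample codes begin with Z gave 1401 calls at ZT2 and 3554 changes from ZT0 to ZT2. That set holds 1 COX11 KO library at ZT2 (150-3) against 3 NDUFA5 KO libraries, all of line 46, so it says little about the ZT2 difference. The remaining COX11 KO libraries at ZT2 and those of NDUFA5 KO line 48 have codes beginning with A. Among the knockout libraries at ZT0, only NDUFA5 KO library 46-1 has such a code. Genotype, time and code are thus partly mixed in the ZT2 difference and in its change from ZT0.

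The genes that were higher in COX11 KO at ZT0 kept part of that difference at ZT2 and on balance none at ZT6. The median log2 fold change of these 5825 genes, 1.14 at ZT0, came to 0.28 by ZT2 and to -0.05 by ZT6. The ZT0 median follows from the choice of the genes. At ZT2, 1660 of the 5825 were called higher (28.5%, against 13.6% of all genes tested) and 237 lower (4.07%, against 15.2%). At ZT6, 349 were called higher (5.99%, against 9.91%) and 530 lower (9.10%, near the 8.49% of all genes tested).

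The genes that were lower in COX11 KO at ZT0 also kept part of that difference at ZT2. At ZT6, unlike the higher genes, they were called with the reversed sign well above the share of all genes tested. Here the median log2 fold change, -0.84 at ZT0, came to -0.23 by ZT2 and to 0.11 by ZT6. At ZT2, 222 of the 5250 were called higher (4.23%) and 1806 lower (34.4%). At ZT6, 1020 were called higher (19.4%, against 9.91% of all genes tested) and 438 lower (8.34%, near the 8.49% of all genes). Across the 18460 genes, the log2 fold change at ZT0 correlated with that at ZT2 (Pearson r = 0.42, Spearman rho = 0.44) and weakly and inversely with that at ZT6 (r = -0.10, rho = -0.19). Genes are not independent replicates, and these values are a description.

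**Figure D3:**
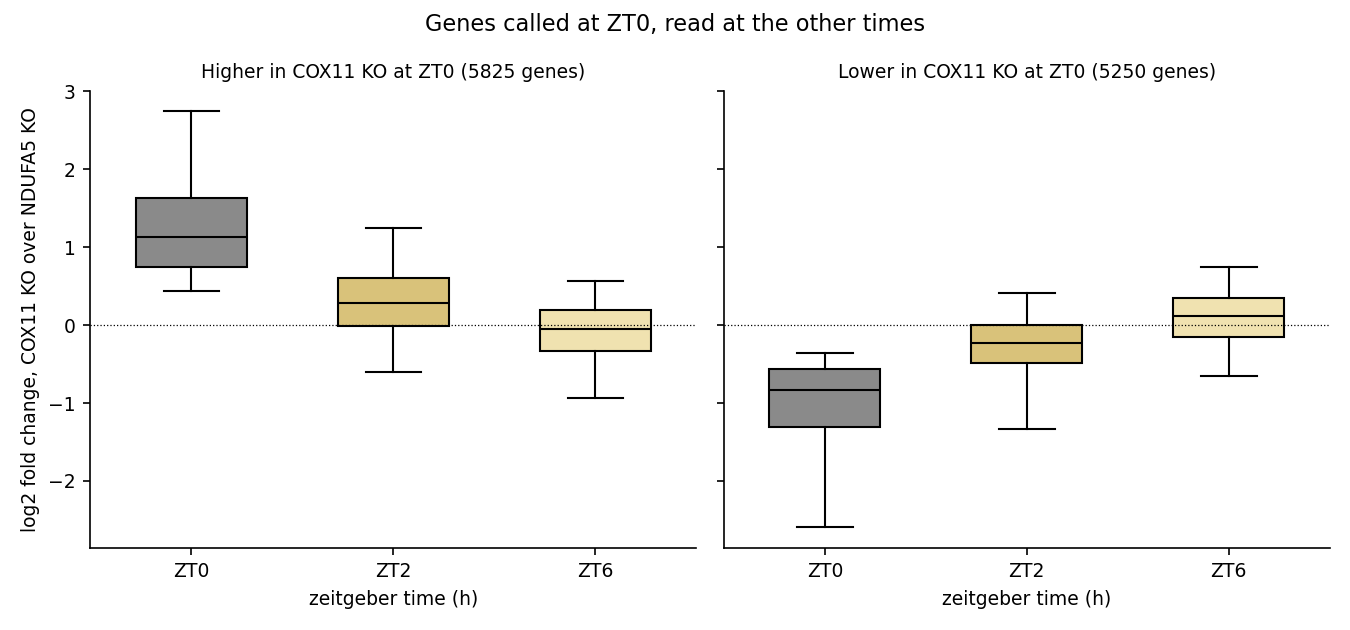
Log2 fold change of COX11 KO over NDUFA5 KO at ZT0, ZT2 and ZT6 for the 5825 genes called higher at ZT0 (left) and the 5250 called lower (right). Boxes span the quartiles with the median as a line, and whiskers reach the 5th and 95th percentiles; the medians were 1.14, 0.28 and -0.05 on the left and -0.84, -0.23 and 0.11 on the right. The ZT0 boxes lie on one side of 0 by the choice of genes.

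A stricter pattern joined a call at ZT0, no call at ZT2 or ZT6, and called changes against both. It held for 1678 of the 5825 genes higher and 1260 of the 5250 genes lower in COX11 KO at ZT0. Called with 1 sign at all 3 times were 186 genes higher and 234 lower, out of the same totals. Both patterns rest on the calls at ZT2 and ZT6, whose counts moved with the setting, and a gene not called there may still differ. No count of these patterns under other settings is given here.

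Of the genes different at ZT0 and not called in the light, Pp3c24_12720 had 0.711, 0.458, 1.05, 0.308 and 0.752 CPM in COX11 KO, against 26.6, 41.1, 47.5 and 35.7 CPM in NDUFA5 KO. In WT it had no count in 5 of the 6 libraries. At ZT2 and ZT6 the group means were at most 0.0613 CPM in both knockouts, so the transcript was measurable at the end of the night and hardly at all in the light. The log2 fold change at ZT0 was -5.80 ± 0.37 (SE, edgeR, adjusted p = 5.14e-14).

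Pp3c6_520 had 0.711, 0, 1.05, 0 and 0.150 CPM in COX11 KO at ZT0, against 52.4, 77.4, 58.0 and 46.1 CPM in NDUFA5 KO. WT ran from 0.171 to 6.31 CPM, overlapping COX11 KO and below every NDUFA5 KO library. At ZT2 the means were 0.211 ± 0.166 CPM in COX11 KO and 0.828 ± 0.824 CPM in NDUFA5 KO (SD, n = 5 each). The log2 fold change at ZT0 was -7.23 ± 0.66 (SE, edgeR, adjusted p = 1.31e-12), and without COX11 KO library 150-2 it was -8.14. The change from ZT0 to ZT2 was -6.34 for Pp3c24_12720 and -5.37 for Pp3c6_520 on the log2 scale, and both were called. With only sample codes beginning with Z, where 1 COX11 KO library is left at ZT2, they were -4.11 (edgeR adjusted p = 0.967) and -5.97 (edgeR adjusted p = 0.360).

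Pp3c16_23250, described above, was also of this kind. Its levels at ZT2 were 567 ± 198 CPM in COX11 KO and 719 ± 574 CPM in NDUFA5 KO (SD, n = 5 each), with a log2 fold change of -0.34 that did not pass the test (edgeR adjusted p = 0.595). Pp3c24_20800 had 44.6, 65.5, 76.8, 13.7 and 17.8 CPM in COX11 KO at ZT0, against 0.624, 1.39, 2.83 and 1.21 CPM in NDUFA5 KO. WT, at 5.47 to 71.7 CPM, shared the COX11 KO range. Its log2 fold change was 4.82 ± 0.81 (SE, edgeR, adjusted p = 2.37e-06) at ZT0 and -0.10 at ZT2. At ZT6 the estimates of both genes pointed the other way without passing the test. They were -1.15 for Pp3c24_20800 (edgeR adjusted p = 0.123) and -0.97 for Pp3c16_23250 (edgeR adjusted p = 0.118). The deposited counts of Pp3c24_20800 include fractions, so it may share reads with another gene, which was not tested.

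Pp3c10_6760, with the largest fold change upwards at ZT0 among genes of at least 32 CPM and no overlap, changed sign in the light. It had 108 ± 34.02 CPM in COX11 KO and 458 ± 357 CPM in NDUFA5 KO at ZT2 (SD, n = 5 each). At ZT6 it had 19.1 ± 8.32 CPM in COX11 KO and 103 ± 84.5 CPM in NDUFA5 KO (SD, n = 5 each). Its log2 fold changes were -2.08 ± 0.59 at ZT2 (edgeR adjusted p = 0.00650) and -2.44 ± 0.62 at ZT6 (edgeR adjusted p = 0.00445). Pp3c23_15870 also changed sign, with a log2 fold change of -1.15 at ZT6 (edgeR adjusted p = 1.77e-05).

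Of the genes different at all 3 times, Pp3c5_12290 had 29.2, 22.7, 25.7, 23.1 and 26.2 CPM in COX11 KO at ZT0, against 8.95, 7.52, 3.84 and 5.55 CPM in NDUFA5 KO. Both knockouts lay below every WT library (30.5 to 50.9 CPM), NDUFA5 KO further than COX11 KO. On the log2 scale the fold change was 1.95 ± 0.21 at ZT0 (SE, edgeR, adjusted p = 8.28e-11), 3.33 at ZT2 and 3.04 at ZT6. Pp3c2_5110 had 11.1, 12.6, 11.3, 16.2 and 6.32 CPM in COX11 KO at ZT0, against 3.95, 2.54, 4.65 and 3.38 CPM in NDUFA5 KO. Its log2 fold changes were 1.69, 1.501 and 1.25 at the 3 times, and the change from ZT0 did not pass the test (edgeR adjusted p = 0.778 against ZT2 and 0.372 against ZT6).

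Lower at all 3 times was Pp3c7_430, with 1.66, 0.458, 2.27, 2.00 and 2.41 CPM in COX11 KO at ZT0, against 113, 78.3, 122 and 111 CPM in NDUFA5 KO. WT, at 0 to 9.92 CPM, was low as well. The NDUFA5 KO mean was 28.3 ± 11.3 CPM at ZT2 and 5.79 ± 3.61 CPM at ZT6 (SD, n = 5 each). The difference was a log2 fold change of -5.84 at ZT0, -4.80 at ZT2 and -2.63 at ZT6, and its change between ZT0 and ZT6 was called (edgeR adjusted p = 0.00312). Pp3c14_15610 had 1.66, 0.458, 1.22, 6.79 and 0.301 CPM in COX11 KO at ZT0, against 5.83, 27.1, 132 and 217 CPM in NDUFA5 KO. It is the least even of these genes: line 46 was far below line 48, COX11 KO library 150-3 lay above NDUFA5 KO library 46-1, and so the groups overlapped. Its log2 fold change was -5.41 ± 1.07 (SE, edgeR, adjusted p = 3.34e-05), -4.64 without NDUFA5 KO library 48-2 and -6.76 without COX11 KO library 150-3. COX11 KO lay below every WT library (26.5 to 182 CPM), and NDUFA5 KO overlapped WT.

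**Figure D4:**
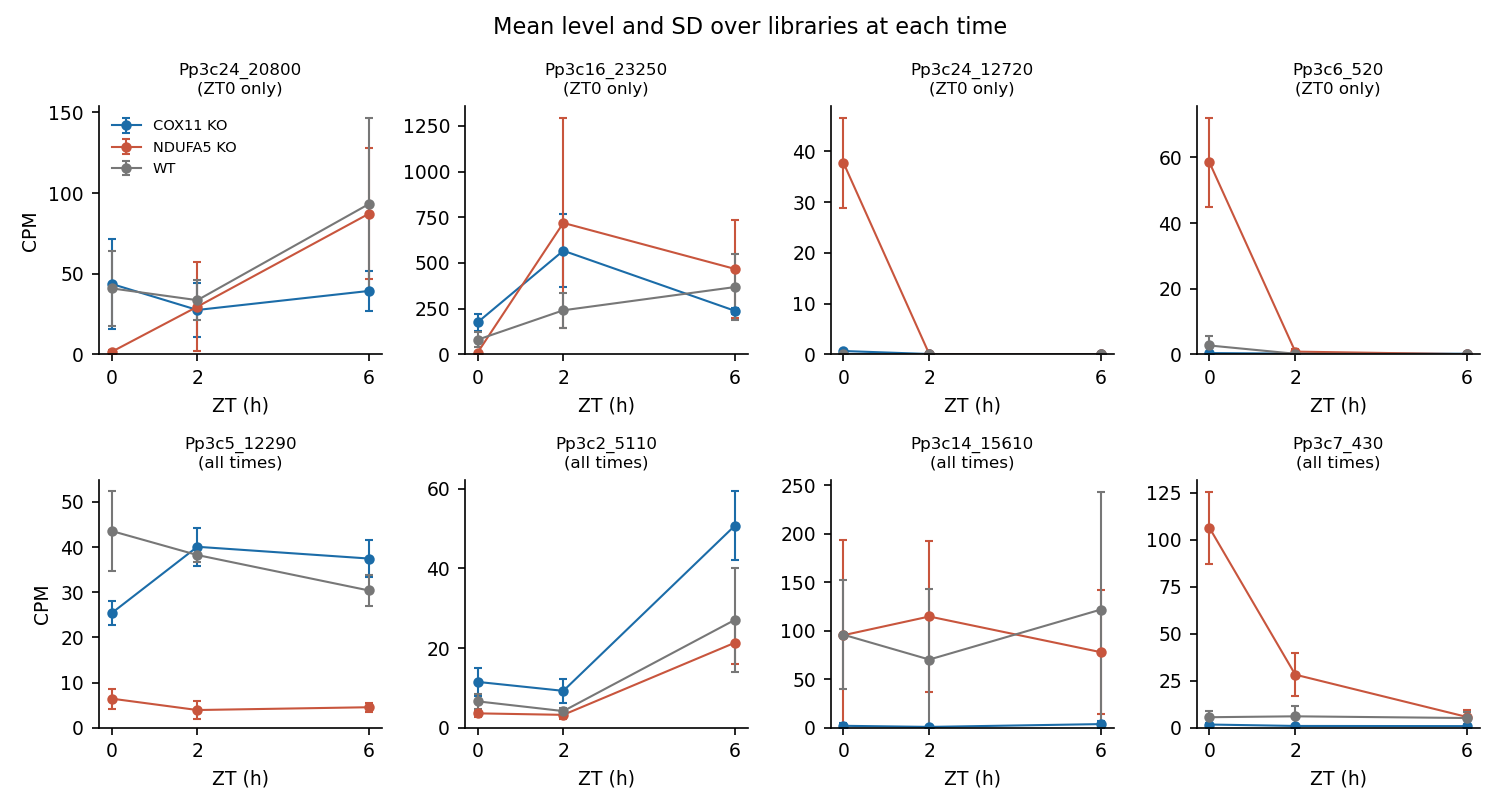
Mean CPM (points) with SD over libraries (bars, clipped at 0) at ZT0, ZT2 and ZT6 (horizontal axis, h) in COX11 KO (blue), NDUFA5 KO (red) and WT (grey). The top row holds genes called at ZT0 and at neither later time, the bottom row genes called at all 3 times; Pp3c7_430 had 106 CPM in NDUFA5 KO at ZT0 and 5.79 CPM at ZT6.

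Genes that change with time of day in WT gave a second view of the ZT0 difference, since the WT libraries take no part in its fold change. In WT, 1884 genes (10.2%) were at least 2-fold higher at ZT2 than at ZT0 and called, and 1858 (10.1%) lower. At ZT6, 2145 (11.6%) were higher and 1671 (9.05%) lower. Among the 2145 genes higher at ZT6 in WT, COX11 KO exceeded NDUFA5 KO at ZT0 by a median log2 fold change of 0.96, with 1158 called higher (53.99%) and 159 lower (7.41%). Over all genes tested the median was 0.09, with 31.6% called higher and 28.4% lower.

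The opposite list moved the opposite way. Among the 1671 genes lower at ZT6 in WT, the median log2 fold change was -0.43, with 270 called higher (16.2%) and 753 lower (45.1%). The lists from ZT2 were less balanced. The 1884 genes higher at ZT2 had a median of 0.75 (49.4% called higher, 15.6% lower), and the 1858 lower at ZT2 had -0.10 (24.1% called higher, 32.5% lower). With library totals alone these medians became 1.35 and -0.03 for the lists from ZT6, and 1.12 and 0.29 for those from ZT2, beside 0.48 for all genes. The sign for the genes lower at ZT2 thus turned with the scaling.

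The pattern was the same in each library. For the genes higher at ZT6 in WT, the library medians of log2 CPM, taken from the midpoint between the knockout means, ran from 0.32 to 0.59 in COX11 KO and from -0.44 to -0.30 in NDUFA5 KO. For the genes lower at ZT6 they ran from -0.41 to -0.14 in COX11 KO and from 0.16 to 0.27 in NDUFA5 KO. In both lists from ZT6 the knockouts did not overlap. For the genes lower at ZT2 they overlapped narrowly, the highest COX11 KO library at 0.0451 and the lowest NDUFA5 KO library at 0.0445. Over all genes tested they did not overlap either, at 0.0185 to 0.0474 in COX11 KO and -0.0402 to 0.00988 in NDUFA5 KO. Lack of overlap alone therefore does not mark the lists, and the distance between the knockouts is what differs. All WT libraries at ZT0 have sample codes beginning with Z and all at ZT2 codes beginning with A, so for the ZT2 lists time and code cannot be told apart.

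**Figure D5:**
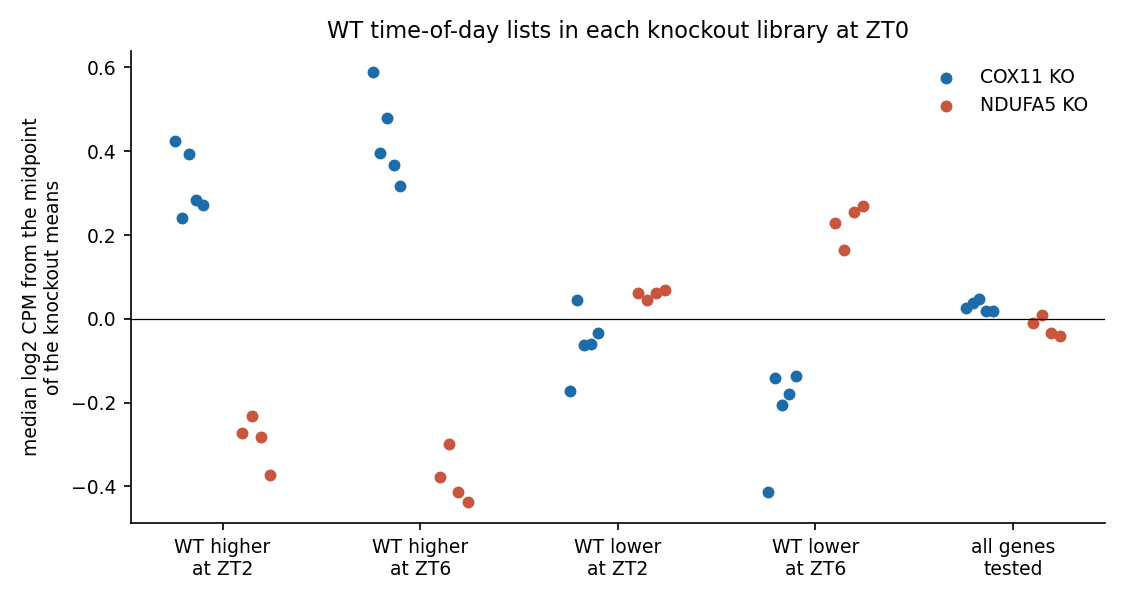
Median log2 CPM of the WT time-of-day lists in each knockout library at ZT0, taken from the midpoint between the means of the knockouts (0), with COX11 KO left of NDUFA5 KO in each list. For the genes higher at ZT6 in WT the 5 COX11 KO libraries lie at 0.32 to 0.59 and the 4 NDUFA5 KO libraries at -0.44 to -0.30; all genes tested lie near 0 in both.

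Single genes did not all go with their list. Pp3c15_6620, which had a WT log2 fold change of 5.47 at ZT2 over ZT0, had 36.99, 37.6, 47.8, 35.8 and 44.4 CPM in COX11 KO at ZT0, against 126.1, 282, 179 and 153 CPM in NDUFA5 KO. It was thus lower in COX11 KO (log2 fold change -2.19 ± 0.25, edgeR adjusted p = 4.12e-10), and both knockouts lay above WT, at 6.28 to 14.3 CPM. The ID Pp3c15_6622 had exactly equal rounded counts in 46 of the 47 libraries and differed by 2 counts in the other, with fractions among the deposited values, so the 2 IDs cannot be told apart and count as 1 measurement.

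Of the genes that fell in WT, Pp3c5_16470 had 10.9, 12.1, 14.8, 14.7 and 15.2 CPM in COX11 KO at ZT0, against 27.5, 80.4, 63.3 and 77.4 CPM in NDUFA5 KO (log2 fold change -2.19 ± 0.35, edgeR adjusted p = 7.26e-07). The 2 groups did not overlap, and WT, at 16.7 to 35.9 CPM, lay above COX11 KO. Pp3c26_7990 had 11.1, 16.5, 13.6, 12.6 and 15.8 CPM in COX11 KO, against 55.8, 27.8, 53.1 and 82.004 CPM in NDUFA5 KO (log2 fold change -1.96 ± 0.28, edgeR adjusted p = 1.01e-07). WT ran from 39.5 to 129 CPM, so that COX11 KO was low for this gene and NDUFA5 KO reached into the WT range.

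The direction of the difference also varied with the level of a gene. Among 5625 genes with a mean under 8 CPM in the 9 libraries, 39.8% were called higher in COX11 KO and 7.20% lower, with a median log2 fold change of 0.68. Among 310 genes with at least 512 CPM, 7.42% were called higher and 69.03% lower, with a median of -0.45. The classes between them lay in order, at 0.12, -0.31 and -0.40. These means come from the same libraries as the difference. The genes were also classed by their level in the 8 WT libraries at ZT6. The 5 medians were then 0.44, 0.03, -0.10, -0.08 and -0.12 from lowest to highest, and the lowest class stood apart. Genes that change by ZT6 in WT also differed between the knockouts, as the lists above show, so this classing is not neutral either. With library totals alone the medians by level in the 9 libraries were 1.07, 0.52, 0.08, -0.00201 and -0.06. Genes of low level had a larger SE, which makes a given fold change harder to call. The genes under 6.00 CPM, the bottom quartile by level, had 44.8% called and a median SE of 0.46. The top quartile, from 43.8 CPM, had 71.4% called and a median SE of 0.15. Whether depth accounts for the lower share called was not tested.

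Counts were spread over more genes in COX11 KO. The 100 genes highest in each library took 18.3% ± 1.34 of the counts in COX11 KO (SD, n = 5) and 22.3% ± 0.299 in NDUFA5 KO (SD, n = 4), with no overlap (two-sided exact permutation p = 0.0159, adjusted p = 0.0265). At a common depth of 4060126 counts, 19777 ± 299 genes would be detected in COX11 KO (SD, n = 5) and 19198 ± 207 in NDUFA5 KO (SD, n = 4; two-sided exact permutation p = 0.0159, adjusted p = 0.0265). Without NDUFA5 KO library 46-2, 48-1 or 48-2, the adjusted p of both measures and of the scaling factor was 0.0595 (two-sided exact permutation test). The groups still did not overlap, so the unadjusted p was the smallest that the reduced group allows. The lost call therefore does not show that the difference rests on 1 library. The share of reads in the summary lines of the counting tool, reads given to no gene, was 33.8% ± 3.02 in COX11 KO and 32.3% ± 0.990 in NDUFA5 KO, which did not pass the test (two-sided exact permutation p = 0.492).

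By the prefix of their IDs, the genes fell into 27 sets, and the share called ran from 54.5% to 64.8% over them, so every set held called genes at a like share. Genes of the prefix Pp3c2 had a median level above WT in every library of both knockouts. Their median log2 level over the WT mean was 0.95 ± 0.0222 in COX11 KO (SD, n = 5) and 0.84 ± 0.0862 in NDUFA5 KO (SD, n = 4; two-sided exact permutation p = 0.0317, adjusted p = 0.0397). The call did not stand without NDUFA5 KO library 46-2, 48-1 or 48-2 (adjusted p = 0.0893), nor without any 1 of 4 of the 5 COX11 KO libraries (adjusted p = 0.0714). The NDUFA5 KO lines were apart, with 0.92 and 0.91 in line 46 and 0.76 and 0.77 in line 48. In the other 26 prefixes the library medians over WT ran only from -0.21 (Pp3c27, library 48-2) to 0.11 (Pp3c21, library 46-2). The difference between the knockouts was not particular to Pp3c2. Its median log2 fold change, COX11 KO over NDUFA5 KO, was 0.17, within the -0.05 to 0.21 of the other prefixes.

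Of the 32926 genes in the table, 1169 had a count in COX11 KO and none in NDUFA5 KO (median 2 counts summed over its libraries). In 967 genes the reverse held, with a median of 1 count. Few were at 0 in 1 knockout and seen in every library of the other. In 7 genes every COX11 KO library had 0 counts and every NDUFA5 KO library at least 3. Pp3c23_18630 had no count in COX11 KO, against 31, 180, 29 and 12 counts in NDUFA5 KO, and none in WT. Set against a floor of 3 counts over the group, its level was at least 102-fold lower in COX11 KO. Library 46-2 gave 180 of its 252 counts, and without that library the bound was 47.4-fold. Pp3c7_18360 had no count in COX11 KO, against 30, 53, 17 and 11 counts in NDUFA5 KO, and at most 1 count in a WT library. By the same floor it was at least 45.04-fold lower in COX11 KO. In 3 genes NDUFA5 KO was at 0 and every COX11 KO library had at least 3 counts. Pp3c23_13110 had 4, 9, 6, 17 and 16 counts in COX11 KO and none in NDUFA5 KO, at least 14.2-fold higher. Pp3c4_26050 had 3, 3, 11, 7 and 8 counts in COX11 KO and none in NDUFA5 KO, at least 8.76-fold higher. Without NDUFA5 KO library 46-2, the deepest, these bounds were 8.78-fold and 5.403-fold. Floors and bounds cover counting error only, since reads without molecular identifiers are not independent molecules.

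Of the 7385 genes not called at ZT0, the 95% interval of the fold change stayed within 2-fold either way in 4836 (65.5%). In the other 2549 the interval reached 2-fold, so differences of 2-fold or more lay inside it.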

How the data were processed

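Libraries were made with a kit for 3′ ends of polyadenylated RNA, per the labels' protocols. Per the submitters' processing notes, the tools included HTSeq 2.0.2, Bowtie2 2.2.5 and SAMtools 1.6; no genome build was given in the sources used here. The authors deposited 1 table of estimated counts for 32926 genes: 2.35% of the values were more than 1e-06 from a whole number, and values were rounded, although the tests had been planned for whole counts. Of its 57 columns, 47 were matched to samples by sample code and 10 were not used. The 5 HTSeq summary lines (31.2% to 38.9% of the reads of the 9 libraries) were left out.

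All 47 libraries were fitted as 9 groups with edgeR 4.0.16 in R 4.3.3 (TMM scaling, filterByExpr, glmQLFit and glmQLFTest, Benjamini-Hochberg FDR 0.05); lines were fitted as 1 mean for each line and time, by the line in the sample title. SE is the log2 fold change divided by the square root of F. CPM use TMM-scaled totals. The procedure was tested on simulated data. Library measures were compared by exact permutation, doubling the smaller tail. Alternatives were other scalings, DESeq2 1.42.0, filters, sample sets, a replicate block and each ZT0 library left out. Within groups, pairs of replicates differed by a chi-square per gene of 2.55 to 20.2 over 16 pairs, so none was a duplicate. The closest pairs had consecutive sample codes. They were NDUFA5 KO 48-1 and 48-2 (2.55) and COX11 KO 150-3 and 152-2, of different lines (2.80). COX11 KO 150-1 and 150-2, also consecutive, differed by 8.32. COX11 KO 152-1 and 152-2, of 1 line, differed by 17.4, and NDUFA5 KO 46-1 and 46-2 by 15.0. The sample codes' meaning is not given in the labels.

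Named genes were the top 2 in each direction for each comparison: by fold change among called genes with no overlap and at least 32 CPM; by shift in CPM; by interaction size (at least 8 CPM); by the smallest of 3 fold changes (at least 8 CPM); by WT change at ZT2 (at least 32 CPM); by fold change between lines (at least 8 CPM); and by summed count for genes at 0 in 1 knockout. The members, lists and rules were chosen with earlier results of these data known; the classes by level were added after the data were seen. Of the gene IDs, 0 were found in the RefSeq table of 27567 genes.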

Additional observations from a re-analysis of the deposited data

Results flagged for a closer look

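Of 81 groups of 4 to 6 libraries searched for 1 library far from the others, 6 held one; chance gives about 1 in 20. COX11 KO library 152-1 stood above its group in 3 genes: Pp3c10_6760 at 102 CPM (the next at 60.9), Pp3c9_24840 at 160 CPM (the next at 93.2) and Pp3c9_25690 at 330.1 CPM (the next at 209.5). COX11 KO library 150-3 had 6.79 CPM of Pp3c14_15610, with the next at 1.66. WT library 5 had 0.210 CPM of Pp3c24_12720, with the others at 0. NDUFA5 KO library 46-2 had 10349601 counts in genes, with 5833019 in the next of its group.

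By the test of the change itself, the knockout difference was not the same at ZT0 and ZT2 in 6557 genes, and at ZT0 and ZT6 in 9760. At ZT2 the code letters are split unequally over the knockouts and the NDUFA5 KO lines, so time and code are partly mixed there. For genes called at ZT0 and at neither later time, the log2 fold change of COX11 KO over NDUFA5 KO at ZT0, minus that at the later time, was as follows. Pp3c24_20800 had 4.92 ± 0.98 against ZT2 and 5.97 ± 0.97 against ZT6 (SE). Pp3c16_23250 had 4.61 ± 0.70 and 5.24 ± 0.71. Pp3c24_12720 had -6.34 ± 1.61 and -7.14 ± 2.16; it had no count in any NDUFA5 KO library at ZT6, so the second value depends on the prior count of the fit. Pp3c6_520 had -5.37 ± 1.55 and -9.03 ± 2.195. Its levels at ZT6 were also near the floor, at 0.176 ± 0.394 CPM in COX11 KO and 0.0331 ± 0.0740 CPM in NDUFA5 KO (SD). For Pp3c24_12720 at ZT2 they were 0.0613 ± 0.0841 and 0.0363 ± 0.0811 CPM in the same order (SD). The sizes of these changes therefore rest on few reads at the later time.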

How the results depend on the processing

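The count of genes called between the knockouts at ZT0, 11075, stayed between 8404 (only ZT0 sample codes Z79 to Z92) and 11698 (library totals only) under all alternatives run, with 10371 to 10780 when 1 library was left out and 9099 at FDR 0.01. Fitted with a replicate block it was 9768; deviations of libraries with the same number correlated from -0.26 to 0.26, as did those with other numbers, so the numbers do not pair the libraries. The 20 named values of the knockout difference kept direction and call in all 434 refits (edgeR or DESeq2, highest adjusted p 0.00949). These genes were picked as extreme called genes of the same libraries, so keeping the call is no separate support. Nor are the 20 all distinct, since Pp3c16_23250 is named under more than 1 ranking and Pp3c15_6620 and Pp3c15_6622 are 1 measurement.

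With library totals only, 8837 genes were higher in COX11 KO and 2861 lower (75.5% higher); the medians of the WT lists became 1.12 (higher at ZT2), 0.29 (lower at ZT2, reversed), 1.35 (higher at ZT6) and -0.0289 (lower at ZT6). With the run of sample codes as a covariate the median for genes higher at ZT6 was 1.08. The ZT2 count of 5315 became 1401 with codes beginning with Z only, 2214 with counts summed for each line and 3299 at FDR 0.01; ZT0 minus ZT2 (6557) became 3554, 3778 and 4261 under the same 3 settings. The Z set holds 1 COX11 KO library at ZT2, taken to vary like the other groups, and no library of NDUFA5 KO line 48 there. The ZT6 count of 3396 became 424 with summed counts and 1703 at FDR 0.01. Between COX11 KO lines the count was 1 with DESeq2 and 0 to 1 with 1 library left out. Between NDUFA5 KO lines, 36 became 11 with the 9 libraries alone, 0 with the 15 ZT0 libraries alone, 109 with DESeq2, 0 at FDR 0.01 and 0 to 172 with 1 library left out. Apart from fewer samples, genes or a stricter threshold where the setting itself brings these, the cause was not tested. A given fold change is harder to call at low levels: the median SE was 0.46 in the bottom quartile of genes by CPM.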
